A study of Mus musculus with 4 samples.

Results

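Interleukin 10 and transforming growth factor beta (TGF-β) are the main anti-inflammatory cytokines of T cells and macrophages. Their axis is described here through 10 of the 55335 genes counted, chosen by name with earlier results of these data known. They are the cytokine gene Il10 and its receptor chains Il10ra and Il10rb, the ligand Tgfb1, its receptors Tgfbr1 and Tgfbr2, the signalling proteins Smad3 and Smad7, the TGF-β-induced matrix gene Tgfbi, and Thbs1, which encodes thrombospondin 1, an activator of latent TGF-β. All 10 had at least 1 fragment, and 9 had enough to be tested. Il10ra did not. Of the 9, 0 differed between knockout and control libraries past the threshold, an adjusted p of 0.05, as did 0 of all 12434 genes tested (0% higher and 0% lower). In the edgeR fit to all 4 libraries Thbs1 and Il10rb had the largest log2 fold changes of the 9, an order that other fits changed.

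The RNA came from back skin of mice aged 8 to 12 weeks given 5% imiquimod cream for 5 days, at 15 or 62.5 mg a day, and the labels do not say which mouse had which amount. Imiquimod is a Toll-like receptor agonist that gives mouse skin a psoriasis-like inflammation. The labels call the cells CD4+ T cells from skin. The 2 knockout libraries are from Mettl3fl/fl;Cd4-Cre mice, whose floxed Mettl3 alleles are cut by a Cre recombinase driven from the Cd4 promoter, a driver that acts in T cell precursors and spares most other cells of the skin. The 2 control libraries are from Mettl3fl/fl mice, which carry the same floxed alleles without Cre, and all mice received imiquimod. Mettl3 is the enzyme that places N6-methyladenosine (m6A) on RNA. By the labels, the comparison is between CD4+ T cells of mice with and without Cre. How many mice gave each library is not stated, so p-values measure only the spread between these libraries, which may be technical.

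Interleukin 10 binds a receptor made of a private chain, IL-10Rα, and a shared chain, IL-10Rβ, which signals through JAK1, TYK2 and STAT3 and damps cytokine production by macrophages. TGF-β1 is secreted in a latent form, is released by integrins, proteases or thrombospondin 1, and binds the type II receptor TGFBR2, which then activates the type I receptor TGFBR1. SMAD3 carries that signal to the nucleus, and SMAD7, itself induced by the pathway, shuts the receptor down. In skin the axis is known for restraining T cells and macrophages and for building matrix.

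The libraries held between 3614418 and 4537006 fragments, and several facts about them touch every value below. Mettl3 had 121 and 158 fragments in knockouts 1 and 2, against 195 and 49 in controls 1 and 2, and none lay in an exon of a protein-coding transcript, so these counts check nothing about the deletion. Cd4, the marker in the labels, had 420 and 9 fragments in the knockouts and 777 and 0 in the controls, and Cd3e, part of the CD3 signalling complex, had 80 and 42 against 282 and 1. Other T cell genes were not at 0 in control 2: Cd3d, of the same complex, had 101 and 101 fragments in the knockouts, against 478 and 299 in the controls, and Trbc2, a T cell receptor constant region, had 146 and 79 against 871 and 260. Macrophage and monocyte markers, led by Lyz2, summed to 34826 and 31739 CPM (fragment counts scaled to library size) in the knockouts and to 21855 and 10932 CPM in the controls, and T cell markers, led by Trac, summed to 324.0 and 172.1 CPM against 1141 and 335.0 CPM. Control 2 stood apart from the others, with 11424 genes detected against 16273 to 20100, and with keratinocyte markers, led by Perp, at 25424 CPM against 1199 to 2709 CPM. By these markers the libraries held RNA of more than the CD4+ T cells in the labels, and the members' values cannot be assigned to T cells alone. In libraries of mixed cells, fewer cells of a type and less RNA per cell cannot be told apart.

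**Figure D1:**
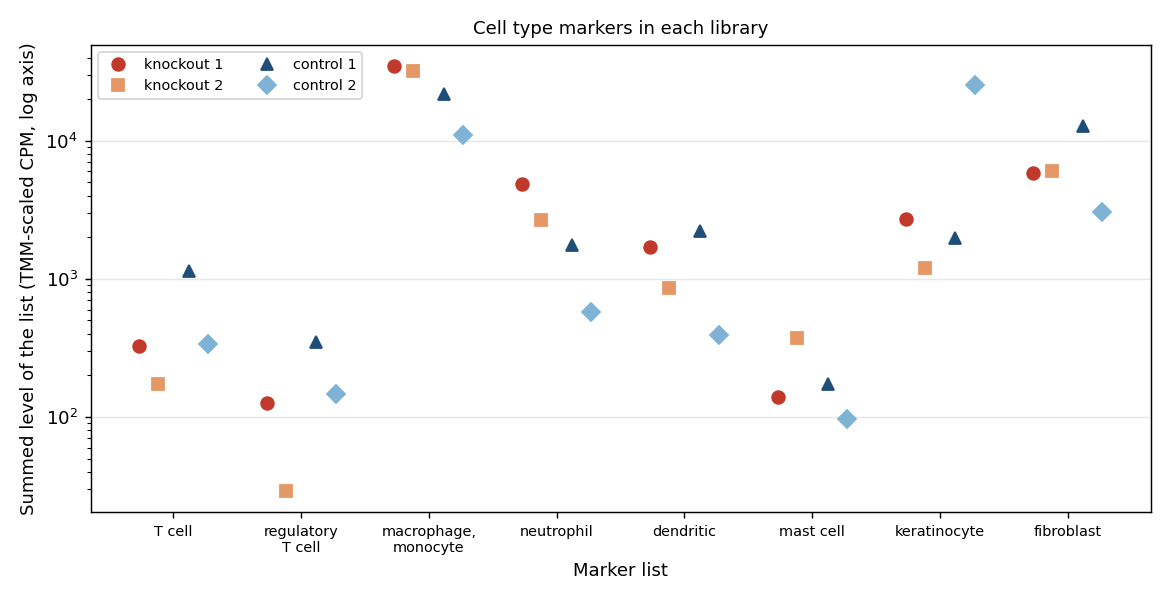
Summed level of marker lists in each library, in TMM-scaled CPM on a log axis, with 1 point a library, knockouts left of controls. Summed macrophage and neutrophil markers lay higher in both knockouts than in both controls, summed T cell and regulatory T cell markers lay lower, and control 2 had the most keratinocyte signal. The neutrophil sum was led by Mxd1 and Mmp8. The regulatory T cell sum holds no fragment of Foxp3, of which 2.84% of the exonic bases could be counted.

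The counts were made per exon entry of the annotation, and a fragment touching more than 1 entry was not counted, so a gene is seen only through the bases that a single transcript's exon covers. Il10 has 1 annotated transcript, and each of its 1310 exonic bases lay in a single entry, here called countable. By the same rule a fragment that spanned more than 1 exon was lost, also in a gene with 1 transcript. Countable bases take no account of that loss, and its size was not measured. It weighs most on short exons, so it bears on the last-exon shares and the levels per length below. Thbs1 had 90.9% of its exonic bases countable, Smad3 87.0%, Tgfb1 84.6%, Tgfbr2 58.7%, Smad7 58.4%, Tgfbr1 52.2%, Il10rb 51.7% and Tgfbi 28.0%. Il10ra had 9 countable bases of 3498, or 0.257%. Coordinates are GRCm38 throughout.

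The sequences below show what was and was not read, and where the commonest m6A motif sits in them. They come from GENCODE M21 transcripts, 5′ to 3′ on the sense strand, and each exon is wholly coding. Il10 exon 2 and Thbs1 exons 10 and 17 have the motif GGACT in capitals. Il10ra exon 2 has in capitals the 6 bases that lie in a single exon entry, which are the ones through which the gene was seen at all.
Il10 exon 2, chr1:131020964-131021023, plus strand: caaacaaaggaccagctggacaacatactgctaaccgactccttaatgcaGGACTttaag
Thbs1 exon 10, chr2:118118649-118118822, plus strand: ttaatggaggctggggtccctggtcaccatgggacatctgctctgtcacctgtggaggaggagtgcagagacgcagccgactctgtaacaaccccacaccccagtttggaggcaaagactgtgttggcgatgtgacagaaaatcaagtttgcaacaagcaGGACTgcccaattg
Thbs1 exon 17, chr2:118122446-118122680, plus strand: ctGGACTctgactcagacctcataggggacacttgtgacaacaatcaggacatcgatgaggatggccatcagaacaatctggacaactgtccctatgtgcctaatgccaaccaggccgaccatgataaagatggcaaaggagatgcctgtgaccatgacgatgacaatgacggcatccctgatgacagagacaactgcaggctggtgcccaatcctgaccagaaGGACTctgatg
Il10ra exon 2, chr9:45267100-45267220, minus strand: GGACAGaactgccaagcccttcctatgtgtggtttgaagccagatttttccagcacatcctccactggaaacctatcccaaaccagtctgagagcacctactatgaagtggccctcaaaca

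GGACT was searched on the sense strand of the coding sequence, since m6A is a mark on RNA. Of 21291 mouse coding sequences, 70.5% held it at least once, at 1.17 per kb over all of them. The coding sequence of Il10 held 2 in 534 bases, where sequences within 10% of that length had a median of 1. Thbs1 held 7 in 3513 bases, where 98.2% of sequences of like length held at least 1 and the median was 4. Tgfbi held 3, Tgfb1, Il10ra and Smad7 held 2 each, and Il10rb and Tgfbr1 held 1 each. Tgfbr2 and Smad3 held 0 in their coding sequences, against 86.0% and 78.6% of sequences of their lengths with at least 1. Counted over the whole last exon, untranslated bases included, Tgfbr2 held 10 and Smad3 held 2, so neither transcript lacks the motif. A match is a description of the letters and says nothing of methylation, which was not measured.

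Il10 (ENSMUSG00000016529, chromosome 1, 131019845 to 131024974, plus strand) encodes the cytokine itself. It had 3355 fragments in knockout 1 and 1495 in knockout 2, against 1737 in control 1 and 1009 in control 2, or 837.4 and 353.4 CPM against 379.2 and 266.3 CPM. Knockout 1 was the high library, and knockout 2 lay between the controls. The means were 595.4 ± 342.2 CPM in knockouts and 322.7 ± 79.8 CPM in controls (SD, n = 2 each). Knockout over control, this was a log2 fold change of 0.88 ± 0.64 (SE; edgeR quasi-likelihood fit, adjusted p = 0.9997, unadjusted p = 0.2245). Without knockout 1 the log2 fold change was 0.16, and without knockout 2 it was 1.44.

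Il10 was also read exon by exon. The last exon, which holds the end of the coding sequence and the 3′ untranslated region (131024176 to 131024974), took 68.0% of the fragments in knockout 1 (exact 95% interval 66.4 to 69.6), 70.8% in knockout 2 (68.5 to 73.1), 70.8% in control 1 (68.6 to 72.9) and 69.5% in control 2 (66.5 to 72.3). Intervals cover counting error only, and these 4 overlap. In exon 2, the one printed above, there were 108 and 35 fragments in the knockouts, against 31 and 15 in the controls. In exon 4 there were 130 and 61 against 83 and 89, so the knockouts were not above the controls in every exon.

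The receptor chains of interleukin 10 were seen only in part. Il10ra (ENSMUSG00000032089, chromosome 9, 45253837 to 45269149, minus strand), the private chain that binds the cytokine, had 6 and 1 fragments in the knockouts and 3 and 2 in the controls, too few to test. This is a limit of the counting, and the level of Il10ra cannot be read from it.

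Il10rb (ENSMUSG00000022969, chromosome 16, 91406164 to 91425834, plus strand), the chain shared with receptors for interleukin 22 and type III interferons, had 340 and 160 fragments in the knockouts, against 111 and 0 in the controls. Both knockouts lay above both controls, at 84.9 and 37.8 CPM against 24.2 and 0 CPM, where 0 fragments in control 2 allows up to 0.792 CPM (3 fragments, counting error only). Both knockouts were above both controls in 19.5% of all genes tested. The log2 fold change was 2.33 ± 2.22 (SE; edgeR, adjusted p = 0.9997, unadjusted p = 0.3389), and with 1 library left out it lay between 1.33, without control 2, and 10.97, without control 1 (adjusted p = 0.05411), where the one control left had 0 fragments and the median of all genes was 1.72. By limma-voom it was 4.83 (adjusted p = 0.9148). Il10rb thus exceeded Thbs1 in those fits, at 4.83 against 2.49 by limma-voom and 10.97 against 3.48 without control 1, and also without retained-intron exons, at 2.84 against 2.58. Of its 611 fragments, 369 lay in 1 exon of a transcript annotated for nonsense-mediated decay (91406755 to 91407741), 177 in a retained-intron exon and 1 in an exon of a protein-coding transcript. The retained-intron exon had 126 fragments in knockout 1 and 0 in knockout 2, against 51 in control 1 and 0 in control 2.

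Among the TGF-β genes, the ligand had near-equal mean levels. Tgfb1 (ENSMUSG00000002603, chromosome 7, 25687002 to 25705077, plus strand) had 182 and 370 fragments in the knockouts, against 347 and 218 in the controls. Its means were 66.4 ± 29.7 CPM in knockouts and 66.6 ± 12.9 CPM in controls (SD, n = 2 each). Its log2 fold change, -0.0043 ± 0.84 (SE), is wide enough to hold a difference of either sign. A single retained-intron exon (25688890 to 25691462) held 84.8% of its fragments. Only 136 fragments, 12.2% of the total, lay in exons of protein-coding transcripts, and none of these was in control 2. Without retained-intron exons the log2 fold change was 1.16 (edgeR, adjusted p = 0.9999).

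The mean levels of both receptor genes were below those of controls, within the spread of the libraries. Tgfbr2 (ENSMUSG00000032440, chromosome 9, 116084293 to 116175360, minus strand), the ligand-binding type II receptor, had 866 and 1952 fragments in the knockouts, against 1900 and 2581 in the controls. Knockout 2 lay between the controls at 461.5 CPM, and knockout 1 was below both at 216.1 CPM. The means were 338.8 ± 173.5 CPM in knockouts and 548.0 ± 188.5 CPM in controls (SD, n = 2 each), and edgeR put the log2 fold change at -0.69 ± 0.64 (SE, adjusted p = 0.9997, unadjusted p = 0.3224). It kept a negative sign with each library left out, from -1.26 without knockout 2 to -0.19 without knockout 1. Its last exon (116084293 to 116090557) held 7289 of the 7299 fragments.

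Tgfbr1 (ENSMUSG00000007613, chromosome 4, 47353222 to 47414931, plus strand), the type I receptor kinase, had 1254 and 477 fragments in the knockouts, against 1080 and 1300 in the controls. Here knockout 2 was the low library, the reverse of Tgfbr2, where knockout 1 was. The means were 212.9 ± 141.6 CPM in knockouts and 289.4 ± 75.9 CPM in controls (SD, n = 2 each), with a log2 fold change of -0.44 ± 0.71 (SE). Without knockout 2 the sign turned, to 0.20. A first exon of a shorter coding transcript, Tgfbr1-203 (47386216 to 47386489), had 43 and 18 fragments in the knockouts, against 6 and 120 in the controls, and was highest in the library with the most keratinocyte signal.

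Of the SMAD genes, Smad3 was low in control 2 alone and Smad7 overlapped between the genotypes. Smad3 (ENSMUSG00000032402, chromosome 9, 63646767 to 63757994, minus strand), which carries the signal, had 424 and 376 fragments in the knockouts, against 430 and 9 in the controls. In CPM, knockouts 1 and 2 were at 105.8 and 88.9, and control 1 at 93.9 lay between them, while control 2 was at 2.38. The log2 fold change was 1.02 ± 1.56 (SE), and without control 2 it was 0.045. Without control 1, which leaves control 2 as the sole control, it was 5.40 (edgeR, adjusted p = 0.05411), and by limma-voom it was 2.43 (adjusted p = 0.9148). The last exon of 3619 bases held between 357 and 413 fragments in each of the other libraries and 0 in control 2.

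Smad7 (ENSMUSG00000025880, chromosome 18, 75367529 to 75395935, plus strand), the inhibitory SMAD, had 315 and 495 fragments in the knockouts, against 552 and 210 in the controls. Its means were 97.8 ± 27.2 CPM in knockouts and 88.0 ± 46.0 CPM in controls (SD, n = 2 each), for a log2 fold change of 0.15 ± 0.79 (SE). The sign turned to -0.31 without control 2 and to -0.11 without knockout 2, so no direction can be given.

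Tgfbi (ENSMUSG00000035493, chromosome 13, 56609523 to 56639562, plus strand), a secreted matrix protein named for its induction by TGF-β, had 106 and 20 fragments in the knockouts, against 83 and 1 in the controls. One library of each genotype was high and one low. The log2 fold change was 0.76 ± 2.14 (SE) and became -0.22 without control 2, -0.97 without knockout 1 and 5.79 without control 1. Of its 210 fragments, 0 lay in exons of protein-coding transcripts, so these counts come from exons of retained-intron and nonsense-mediated decay transcripts alone.

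Thbs1 (ENSMUSG00000040152, chromosome 2, 118111876 to 118127133, plus strand) had the lowest unadjusted p of the 9 tested genes, with 55269 and 22139 fragments in the knockouts, against 11247 and 3393 in the controls. It was at 13795 CPM in knockout 1 and 5234 CPM in knockout 2, against 2455 CPM in control 1 and 895.6 CPM in control 2. Both knockouts lay above both controls. The means were 9514 ± 6054 CPM in knockouts and 1675 ± 1103 CPM in controls (SD, n = 2 each), for a log2 fold change of 2.51 ± 0.79 (SE). The unadjusted p of 0.02304 was the 32nd lowest of 12434, and the adjusted p was 0.9997 (edgeR), so the difference does not pass the threshold over all genes.

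The Thbs1 difference kept its sign in each alternative run, which its counts nearly fixed, since both knockouts lay above both controls. Refitted on 3 libraries, it was 1.66 without knockout 1, 3.09 without knockout 2, 3.48 without control 1 and 1.95 without control 2. It was 2.51 by DESeq2 and 2.49 by limma-voom, at adjusted p of 1 and 0.9148. With no filter on low counts, edgeR called Thbs1, at an adjusted p of 0.003136, among 27 genes called over 24651 tested, and over all alternatives the adjusted p lay between that value and 1.

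**Figure D2:**
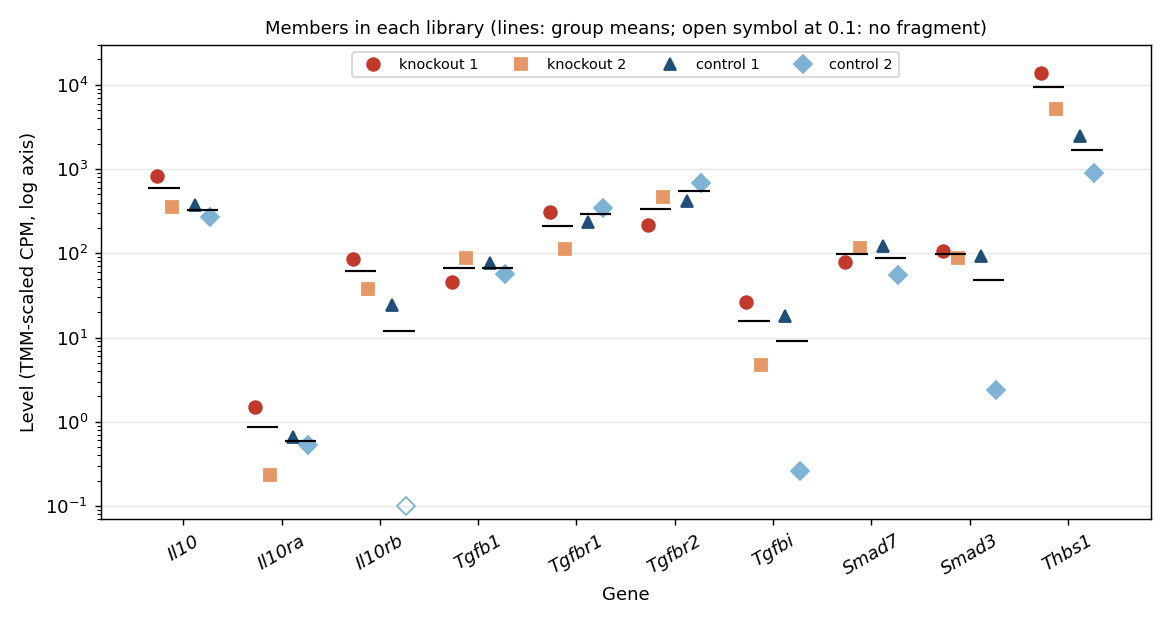
Level of the 10 genes in each library, in TMM-scaled CPM on a log axis, with knockouts left of controls and a line at each group mean. Thbs1 had both knockouts above both controls, at 13795 and 5234 CPM against 2455 and 895.6 CPM, as did Il10rb, while control 2 lay far below the other libraries for Il10rb, Tgfbi and Smad3.

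**Figure D3:**
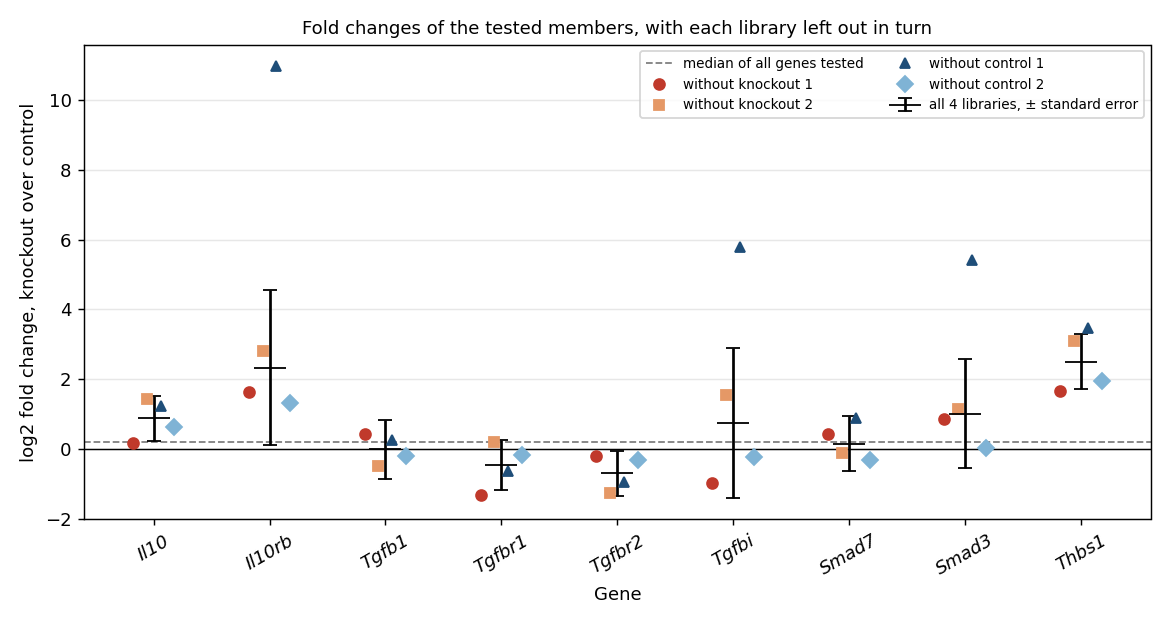
Log2 fold change of knockout over control for the 9 tested genes, as bars of the standard error for all 4 libraries and as symbols for the fits with 1 library left out. Thbs1, Il10, Il10rb and Smad3 stayed positive and Tgfbr2 stayed negative, and the other 4 genes crossed 0 in at least 1 fit. For Thbs1 and Il10rb the sign was nearly fixed, since both knockouts lay above both controls.

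Where along the transcript the Thbs1 fragments lay differed between libraries. The last of its 22 exons (118125022 to 118127133), which holds the 3′ untranslated region, took 58.2% of the fragments in knockout 1 (exact 95% interval 57.8 to 58.6) and 89.5% in knockout 2 (89.1 to 89.9), against 83.4% in control 1 (82.7 to 84.1) and 95.7% in control 2 (94.96 to 96.35). In that exon both knockouts were above both controls, with 32160 and 19813 fragments against 9385 and 3247. In the first 5 exons knockout 2 was below control 1. In exon 10, printed above, there were 844 and 63 fragments in the knockouts, against 39 and 0 in the controls, and in exon 17 there were 2682 and 488 against 288 and 78. In the other exons of its main transcript the gene had 23089 fragments in knockout 1 and 2326 in knockout 2, against 1858 in control 1 and 146 in control 2, so most of that part of the difference was in 1 library.

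The 20 exons that could be counted showed both knockouts above both controls in 14 cases. Control 2 had no fragment in 14 of the 20, and the other libraries had fragments in every one. Counted from the last exon alone, Thbs1 had a log2 fold change of 2.13 (edgeR, adjusted p = 0.9998, unadjusted p = 0.02078). The weight on the last exon also differed in other genes. Over 235 coding genes with 1 transcript, at least 5 exons and at least 20 fragments in each library, its median share was 57.5% in knockout 1 and 64.1% in knockout 2, against 64.9% in control 1 and 70.1% in control 2. Its part in the Thbs1 values was not tested beyond the fit on the last exon.

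**Figure D4:**
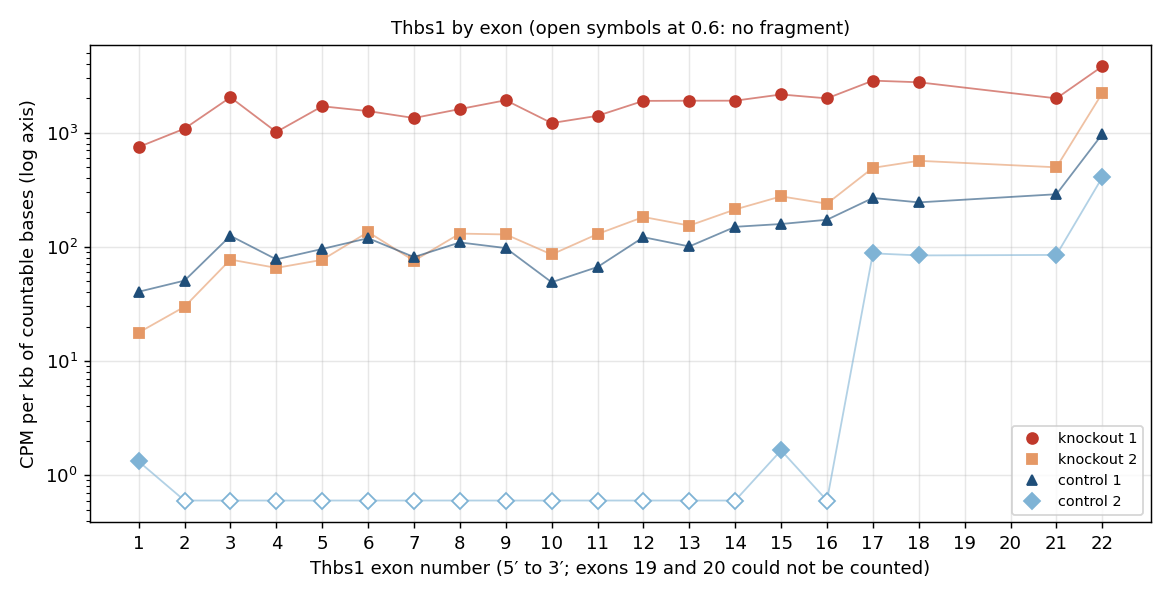
Thbs1 by exon, 5′ to 3′, in CPM per kb of countable bases on a log axis, 1 line a library. Knockout 1 was high along the whole transcript, knockout 2 and control 1 ran together over the first exons and parted toward the last, and control 2 had almost no signal before exon 17.

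Over all 12434 genes tested, edgeR called 0 higher and 0 lower, 187 (1.5%) had an unadjusted p under 0.05, and DESeq2 called 4 higher and 13 lower. The square root of the common dispersion was 1.17, a spread between libraries of 1 genotype about as large as the level itself, and 0 calls do not show that levels were alike. Of the 9 tested members, 0 were called by either tool, and 1, Thbs1, had an unadjusted p under 0.05. Both knockouts lay above both controls for 2 members, Thbs1 and Il10rb, where 19.5% of all genes did, and below for 0, where 11.2% did. Positive log2 fold changes were found for 6 members, where 56.9% of all genes were positive, and without control 2 for 4, where 52.3% of all genes were. The members' median was 0.76, beside 0.20 over all genes tested, and -0.15 without control 2, beside 0.050.

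Per length, the genes spanned a wide range of levels. Over the 4 libraries Thbs1 averaged 1014 CPM per kb of countable bases and Il10 averaged 350.4. Il10 was above Thbs1 in control 2, at 203.3 against 162.2 CPM per kb, and below it elsewhere. Next came Tgfbr2 at 92.3 and Tgfbr1 at 73.7 CPM per kb, and Il10 was above both in each library. Smad7 averaged 35.2, Il10rb 18.6, Tgfb1 15.6, Smad3 15.1 and Tgfbi 11.7 CPM per kb, and neighbours in this order, Tgfbr2 and Tgfbr1 included, changed places between libraries. Per kb of all exonic bases, counted or not, Thbs1 averaged 921.3 CPM, Il10 350.4, Tgfbr2 54.2, Tgfbr1 38.4, Smad7 20.5, Tgfb1 13.2, Smad3 13.1, Il10rb 9.65 and Tgfbi 3.29, which puts Il10rb below Tgfb1 and Smad3. Il10ra was left out of both orders because its 9 countable bases cannot carry a level.

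Other genes have profiles like the members' over the 4 libraries. Likeness was the root-mean-square difference of centred log2 CPM, among 178 tested genes of the pathway and cell type lists. Smad7 was nearest to Calr, a chaperone and thrombospondin receptor partner (0.10), Tgfb1 to the integrin chain Itgb1 (0.14) and Tgfbr2 to the co-receptor Tgfbr3 (0.15). Tgfbr1 was nearest to the integrin chain Itgav (0.24), Il10 to the protease Plau (0.28), Smad3 to the matrix gene Fn1 (0.41) and Thbs1 to Mxd1, a gene of the neutrophil list (0.46). Retained-intron exons alone held 61.2% of the fragments of Itgav and 99.2% of those of Fn1. Il10rb was nearest to Xcr1, a chemokine receptor of dendritic cells (0.51), and Tgfbi to Nrros, which anchors latent TGF-β on myeloid cells (0.65). With 4 libraries, many genes share a profile, and these distances are a description only.

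Around the members, 136 other genes of the pathways were taken from lists chosen with earlier results of these data known. Of these, 104 could be tested, and edgeR called 0 and gave 0 an unadjusted p under 0.05. Of the 104, 49 had a positive and 55 a negative log2 fold change, with a median of -0.088. Both knockouts lay above both controls for 15 and below for 10, where 19.5% and 11.2% of all genes did.

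Genes known to be induced by interleukin 10 in macrophages had 12 positive log2 fold changes of 14 tested, 0 past the threshold, with a median of 0.52, and both knockouts lay above both controls for 6. Over all genes tested, 56.9% were positive and 19.5% had both knockouts above. Socs3, the feedback inhibitor of STAT3 signalling, was at 4233 and 3484 CPM in the knockouts, against 2389 and 275.3 CPM in the controls. Il1rn, the antagonist of the interleukin 1 receptor, was at 370.4 and 233.8 CPM against 141.4 and 121.4 CPM (unadjusted p = 0.09761), and Hmox1, haem oxygenase 1, at 2182 and 2422 CPM against 1531 and 1133 CPM. Without control 2, 9 of 14 were positive, with a median of 0.21. Cd163 and Mrc1 on this list are also genes of macrophages. Beside it, 17 of 17 macrophage markers were positive, with a median of 1.12 (0.87 without control 2). Of 10 neutrophil markers 5 could be tested, and all 5 were positive, with a median of 1.92. The same 5 were positive without control 2. Ly6g, another of the 10, had 0 fragments in all 4 libraries, with 64.4% of its exonic bases countable. S100a9 also had 0, with 13 bases countable. Csf3r had 19 and 0 fragments in the knockouts, against 0 and 0 in the controls. Cxcr2 had 13 and 3 against 0 and 1, and Retnlg 0 and 100 against 6 and 0. The part of macrophages and neutrophils in the values of the interleukin 10-induced genes, and in those of Thbs1 and Il10, was not tested.

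Other parts of the interleukin 10 pathway showed mixed signs. The signal transducers had 2 positive and 2 negative genes, with a median of 0.26, or -0.051 without control 2. Stat3 had 612 and 459 fragments in the knockouts, against 541 and 85 in the controls. Of the Stat3 fragments, 86.2% lay in retained-intron exons alone and 12.8% in exons of protein-coding transcripts. Jak1, the most abundant, was at 842.4 and 663.6 CPM in the knockouts, against 885.0 and 1074 CPM in the controls. Of 9 other cytokines and receptors of the family, 1 could be tested, Il22, a cytokine made by T cells and innate lymphoid cells that acts on epithelium, with 105 and 0 fragments in the knockouts and 667 and 234 in the controls. Among genes that drive Il10 in T cells, 2 of 8 were positive, with a median of -0.28. Icos, a costimulatory receptor, was at 42.7 and 20.8 CPM against 126.8 and 52.3 CPM, and the transcription factor Bhlhe40, the most abundant, at 752.8 and 496.9 CPM against 776.2 and 744.9 CPM. Beside these, 14 of 15 T cell markers had a negative log2 fold change, with a median of -1.22, and all 15 without control 2. Foxp3, the defining factor of regulatory T cells, had 0 fragments in all 4 libraries, but only 130 of its 4577 exonic bases (2.84%) could be counted, so its level cannot be read.

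Among other ligands of the TGF-β family, 6 of 9 tested were positive, with a median of 0.47, and 2 of 9 without control 2, with a median of -0.47. Inhba, which encodes the activin A subunit, had 2779 and 1952 fragments in the knockouts, against 621 and 41 in the controls, at a log2 fold change of 2.98 ± 1.23 (SE; edgeR, adjusted p = 0.9997). Inha, the inhibin alpha subunit, had 10 and 34 fragments against 0 and 0, at least 7.28-fold higher where 3 fragments per library stand as the floor, and with Inha at that bound the median was the same. Bmp7, a bone morphogenetic protein, was the most abundant, at 139.0 and 402.6 CPM against 780.6 and 91.1 CPM. Genes of latency and activation were positive for 6 of 15, with a median of -0.058, and for 5 of 17 without control 2, with a median of -0.37. Plau, the urokinase, was at 47.9 and 26.7 CPM against 18.1 and 20.3 CPM, Itgb6, an epithelial integrin chain that frees TGF-β, had 12 and 0 fragments against 5 and 56, and Mmp2 was at 998.9 and 1948 CPM against 2590 and 386.4 CPM.

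Other receptors of the TGF-β family had 1 positive log2 fold change of 9, with a median of -0.77, or 2 of 10 without control 2, with a median of -0.55. Bmpr2, a type II receptor for bone morphogenetic proteins, was at 137.3 and 140.2 CPM in the knockouts, against 221.6 and 663.1 CPM in the controls, and Cd109, a co-receptor that damps TGF-β signalling, at 106.3 and 15.1 CPM against 89.1 and 966.4 CPM. Both were highest in control 2, where keratinocyte markers summed to 25424 CPM, and the part of keratinocytes in these values was not tested. Of 6 other SMAD genes, 2 were positive, with a median of -0.30, or -0.71 without control 2. Smad5, which serves bone morphogenetic proteins, was at 34.4 and 72.3 CPM against 105.0 and 148.3 CPM, Smad1 at 43.2 and 69.7 CPM against 47.4 and 223.1 CPM, and Smad4, the common partner, at 67.4 and 128.6 CPM against 140.6 and 110.6 CPM.

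Inhibitors of the pathway were positive for 6 of 13 genes, with a median of -0.12, or 0.13 with 7 of 14 positive without control 2. Pmepa1, a TGF-β-induced inhibitor of SMAD signalling, was at 97.8 and 92.9 CPM in the knockouts, against 234.0 and 160.0 CPM in the controls (log2 fold change -1.05 ± 0.63, SE). Usp4, a deubiquitinase of TGFBR1, was at 13.5 and 11.6 CPM against 19.2 and 74.2 CPM, and Fst, which traps activins, at 96.6 and 395.3 CPM against 570.8 and 390.9 CPM. Retained-intron exons alone held 86.0% of the fragments of Usp4 and 31.2% of those of Fst. Genes induced by TGF-β were positive for 8 of 20, with a median of -0.19, and for 4 of 21 without control 2, with a median of -0.54. Tgm2, a transglutaminase that also macrophages express, was at 1462 and 1151 CPM against 673.4 and 129.3 CPM, Id2, an inhibitor of basic helix-loop-helix factors, at 249.1 and 244.2 CPM against 148.0 and 103.2 CPM, and Junb, the most abundant, at 5381 and 5285 CPM against 5319 and 1444 CPM. The receptors of thrombospondin 1 had 4 of 5 positive, with a median of 0.33, or 2 of 5 without control 2, with a median of -0.24. Cd47, the signal-regulatory ligand, was at 572.8 and 563.6 CPM against 825.1 and 754.7 CPM, and the syndecan Sdc4, the most abundant, at 3573 and 4626 CPM against 3486 and 2475 CPM.

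**Figure D5:**
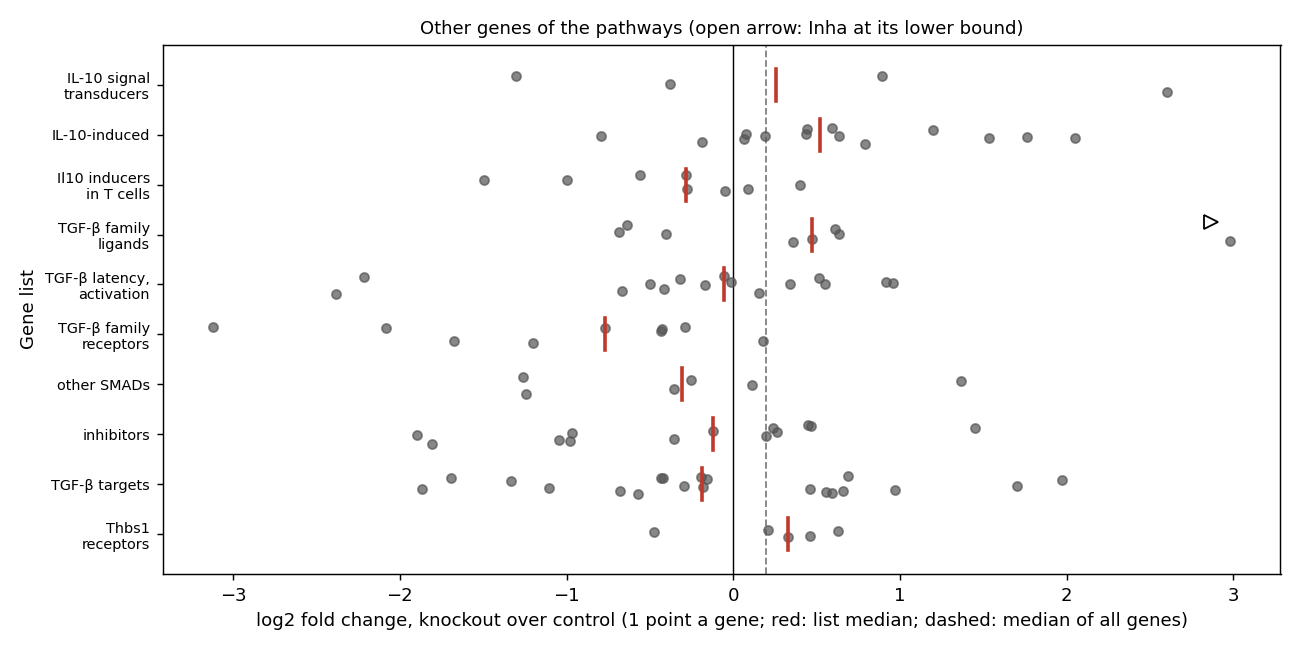
Log2 fold change of knockout over control for the tested genes of 10 lists, 1 point a gene, with each list's median in red and the median of all genes dashed at 0.20. The lists were chosen with earlier results of these data known. Interleukin 10-induced genes lay mostly right of 0 and TGF-β family receptors mostly left of it, and no gene passed the threshold.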

How the data were processed

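The deposited values are raw fragment counts per exon entry. They were made with featureCounts 2.0.1, per the file headers, from pairs mapped at both ends to 1 chromosome and regardless of strand, with GENCODE M23 on GRCm38. The submitters' processing notes name Trim Galore 0.6.7 and STAR 2.7.9a. Sambamba stands in the header's alignment name, and duplicate removal is not stated there. Exon counts were summed per gene, and symbols matched 55154 of 55335 identifiers. Transcript types came from GENCODE M21, which held 99.7% of the exon entries. Of all fragments, 8.30% lay in exons of retained-intron transcripts alone. Entries that share coordinates with another entry (64.8%) held 0 fragments.

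Knockout and control libraries were compared with edgeR 4.0.16 (R 4.3.3): genes kept by filterByExpr (minimum count 10), TMM scaling, the two-sided quasi-likelihood test and Benjamini-Hochberg adjustment over 12434 genes at 0.05. CPM are TMM-scaled. The standard error is the log2 fold change over the root of its F statistic. The code was tested on simulated data with 1 dispersion for all genes. At a dispersion of 0.1, 77% of genes changed by 2 in log2 and 100% of those changed by 4 were recovered. At the common dispersion of the data, 1.378, 0% of either were, so 0 calls were likely even for large changes in genes with that spread. Each gene's own dispersion was not simulated. DESeq2 1.42.0 and limma 3.58.1 (voom) were alternatives. At these depths 0 fragments allows 0.655 to 0.792 CPM. Replicates were numbered in accession order as names only. Any 2 libraries differed by more than sampling noise (chi-square over its degrees of freedom, 46.1 to 197.3).

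The members and lists were chosen with earlier results of these data known. Named are the members, in each list the 2 genes with the lowest p and the most abundant, the nearest gene to each member, Cd4, Cd3e and the most abundant marker of the cell types given. A gene that this rule names is not reported here. Others were named after their values were seen: Foxp3, Cd3d, Trbc2, Mrc1, Cd163, Ly6g, S100a9, Csf3r, Cxcr2, Retnlg, Mmp8 and Mettl3.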

Additional observations from a re-analysis of the deposited data

How the results depend on the processing

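Of 105 member values under alternatives, 93 kept their sign. Tgfb1 reversed with no filter on counts (0.10), upper-quartile scaling (0.046), a 5 CPM minimum mean (0.015) or no retained-intron exons (1.16), and lay between -0.49 and 0.43 with 1 library left out. Tgfbi reversed without retained-intron exons (-0.13) and lay between -0.97 and 5.79 with 1 library left out, Smad7 between -0.31 and 0.88, Tgfbr1 between -1.31 and 0.20, Il10rb between 1.33 and 10.97, and Smad3 between 0.045 and 5.40. Without a low-count filter edgeR called 8 genes higher and 19 lower, 1 of them a member, Thbs1. DESeq2 called 4 higher and 13 lower, and 0 members. With 1 library left out, between 0 and 4 genes were called higher and between 0 and 2 lower, on the assumption that a lone library varies like the other group, and 0 members. The causes of these shifts were not tested. The median over all genes, 0.20, lay between 0.13 and 0.44 under other scalings, tests and filters, and was 1.72 without control 1. The fits on last exons and the list counts without control 2 were added after seeing the data. No paired analysis was possible because the labels number no replicates. Libraries of 1 genotype varied widely (square root of the common dispersion 1.17), which limits what could be called.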
